A study of Mus musculus with 11 samples.

Results

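The genes described here are Vps35 and 9 further genes of the retromer, the endosomal coat that VPS35 holds together: Vps26a, Vps26b, Vps29, Snx1, Snx2, Snx3, Snx5, Snx6 and Snx27. They were chosen by name from the 20888 rows of the expression table, in which all 10 have a row. Vps35 was taken because, of the genes called lower in MFN2-R94Q:MFN1 than in nTg spinal cord, it had the largest fall; the other 9 were taken because their proteins build the retromer or work with it. All 10 passed the filter on low values (at least 0.5 RPKM in at least 3 libraries), which kept 14347 genes. In what follows a gene is called higher or lower when its adjusted p was under 0.05 in limma, with Benjamini-Hochberg adjustment over those 14347 genes. Fold changes are differences on the log2(RPKM + 0.5) scale.

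The tissue was lumbar spinal cord, taken from C57BL/6 mice at 10 months of age. There were 5 libraries from MFN2-R94Q:MFN1 mice, which carry both a mutant MFN2 and MFN1, 3 libraries from MFN2-R94Q mice, which carry the mutant MFN2 without added MFN1, and 3 from nTg (nontransgenic) mice. MFN1 and MFN2 are the mitofusins, which fuse the outer membranes of mitochondria, and mutations of MFN2 cause the axonal neuropathy Charcot-Marie-Tooth disease type 2A, of which these mice are a model per the study's title. The sources used here name neither the promoter that drives each transgene nor the species of its sequence, and no group carries MFN1 without MFN2-R94Q. The mouse Mfn1 row averaged 24.96 RPKM in MFN2-R94Q:MFN1, 26.3 RPKM in MFN2-R94Q and 24.9 RPKM in nTg, and the mouse Mfn2 row averaged 45.2, 46.3 and 45.9 RPKM in the same order. Neither was called in any comparison. The Mfn1 libraries of MFN2-R94Q lay wholly above those of both other groups, and neither row was called higher in MFN2-R94Q:MFN1 than in nTg, so the rows give no check of the added MFN1.

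Retromer recycles membrane proteins out of endosomes, to the trans-Golgi network or to the cell surface, and so keeps them from being broken down in lysosomes. VPS35 is its elongated scaffold: a VPS26 paralog binds at one end and VPS29 at the other, and sorting nexins add membrane binding, curvature and cargo selection. In neurons the complex returns sorting receptors and neurotransmitter receptors, a missense mutation of VPS35 causes a familial form of Parkinson's disease, and VPS35 has been linked in cell and mouse studies to vesicles that leave mitochondria and to the turnover of mitochondrial fusion and fission proteins.

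RefSeq promoter windows on GRCm38.p6 were at hand for 7 of the 10 genes: Vps26a, Vps26b, Vps29, Snx1, Snx3, Snx5 and Snx6. Each window runs from 250 bases before an annotated start to 50 bases after it. They were searched for TCACGTGA, a palindrome (the same on both strands) that is the core of the sequence known from lysosomal genes as the site of the transcription factor TFEB. The letters occurred in 320 of all 32851 windows (0.974%) and, among the 8 windows of the 7 genes, in both windows of Vps26a. Vps26a and its paralog Vps26b are shown because they are the alternative VPS26 subunits of the complex, were expressed at nearly the same level in every group, and differ in this feature. Each line gives the 250 bases before the annotated start on the minus strand, chr10:62486806-62487055 for Vps26a and chr9:27030095-27030344 for Vps26b, with the match in capitals.
Vps26a: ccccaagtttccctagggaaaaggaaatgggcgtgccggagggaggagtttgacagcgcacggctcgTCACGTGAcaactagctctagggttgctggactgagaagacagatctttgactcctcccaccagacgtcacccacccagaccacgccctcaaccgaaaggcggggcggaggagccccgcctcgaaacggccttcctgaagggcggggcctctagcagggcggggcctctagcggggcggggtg
Vps26b: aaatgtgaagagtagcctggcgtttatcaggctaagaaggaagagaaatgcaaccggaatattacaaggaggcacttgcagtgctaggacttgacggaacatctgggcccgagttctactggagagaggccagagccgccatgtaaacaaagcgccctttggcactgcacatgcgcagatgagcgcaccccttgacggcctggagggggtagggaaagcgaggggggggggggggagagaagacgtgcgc
The match in the Vps26a window begins 183 bases before the start, and that in its second annotated window, which overlaps the first, 152 bases before. It is a description of letters, not of a bound site.

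Depth, recovered from the step size of low values, was 30.7 to 71.9 M reads, with no separation of the groups. Each printed value of a member rested on at least about 1228 reads, so that counting error was at most 2.85% of the value. MFN2-R94Q replicate 2 stood apart, with a median absolute log2 deviation of 0.107 from the rest of its group; MFN2-R94Q replicate 1 was at 0.0906, and all other libraries were at 0.0622 or less. The labelled tissue was borne out by its markers: the summed level of 7 neuronal genes was 1923 to 1974 RPKM in MFN2-R94Q:MFN1, 1877 to 1969 RPKM in MFN2-R94Q and 1983 to 2029 RPKM in nTg, while no sensory ganglion marker exceeded 0.228 RPKM and no skeletal muscle marker exceeded 1.23 RPKM.

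Vps35 (chromosome 8, 85260385 to 85299517, minus strand, GRCm38.p6) was lower in MFN2-R94Q:MFN1 than in both other groups. Its level was 30.6, 31.1, 31.8, 29.5 and 30.02 RPKM in the MFN2-R94Q:MFN1 libraries, 50.7, 44.0 and 46.6 RPKM in the MFN2-R94Q libraries, and 50.7, 49.7 and 47.6 RPKM in the nTg libraries. Every MFN2-R94Q:MFN1 library lay below every other library, and the MFN2-R94Q and nTg ranges overlapped.

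The mean of Vps35 was 30.6 ± 0.921 RPKM in MFN2-R94Q:MFN1 (SD, n = 5), 47.1 ± 3.37 RPKM in MFN2-R94Q and 49.3 ± 1.60 RPKM in nTg (SD, n = 3 each). The difference was -0.68 on the log2 scale for MFN2-R94Q:MFN1 against nTg (0.624-fold) and -0.61 against MFN2-R94Q (0.654-fold). Because these values chose the gene, they are a description with no test. In MFN2-R94Q:MFN1 against nTg, 32 genes were called lower. The first place of Vps35 among them was fixed by that choice, with Plac9a (-0.52) and Egr3 (-0.52) next. Among the 478 called lower than in MFN2-R94Q it was number 25. Over all tested genes, called or not, the fall of Vps35 was number 7 against nTg and number 40 against MFN2-R94Q. Leaving out any single library gave -0.71 to -0.66 against nTg and -0.66 to -0.56 against MFN2-R94Q. The comparison that did not choose the gene, MFN2-R94Q against nTg, gave -0.07 ± 0.049 (SE, adjusted p = 0.354, limma), and -0.12 to -0.02 with single libraries left out. In bulk tissue, fewer cells of a type and less RNA per cell cannot be told apart.

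Markers of other cells moved across the same comparison. The summed level of 7 microglial genes was 172 to 185 RPKM in MFN2-R94Q:MFN1, 114 to 134 RPKM in MFN2-R94Q and 125 to 131 RPKM in nTg, and 5 of the 7 were called higher in MFN2-R94Q:MFN1 than in nTg. The sums of 6 astrocyte genes were 1220 to 1298 RPKM in MFN2-R94Q:MFN1, 1075 to 1186 RPKM in MFN2-R94Q and 1048 to 1051 RPKM in nTg. Of the 6, 1 was called higher in MFN2-R94Q:MFN1 than in nTg. Among all tested genes, 2.09% were called higher in that comparison. The neuronal sums given above did not overlap between MFN2-R94Q:MFN1 and nTg, but 0 of 7 neuronal genes was called (1 at an unadjusted p under 0.05, limma), and their differences lay between -0.08 and -0.02. The part of these shifts in the Vps35 difference was not tested.

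**Figure D1:**
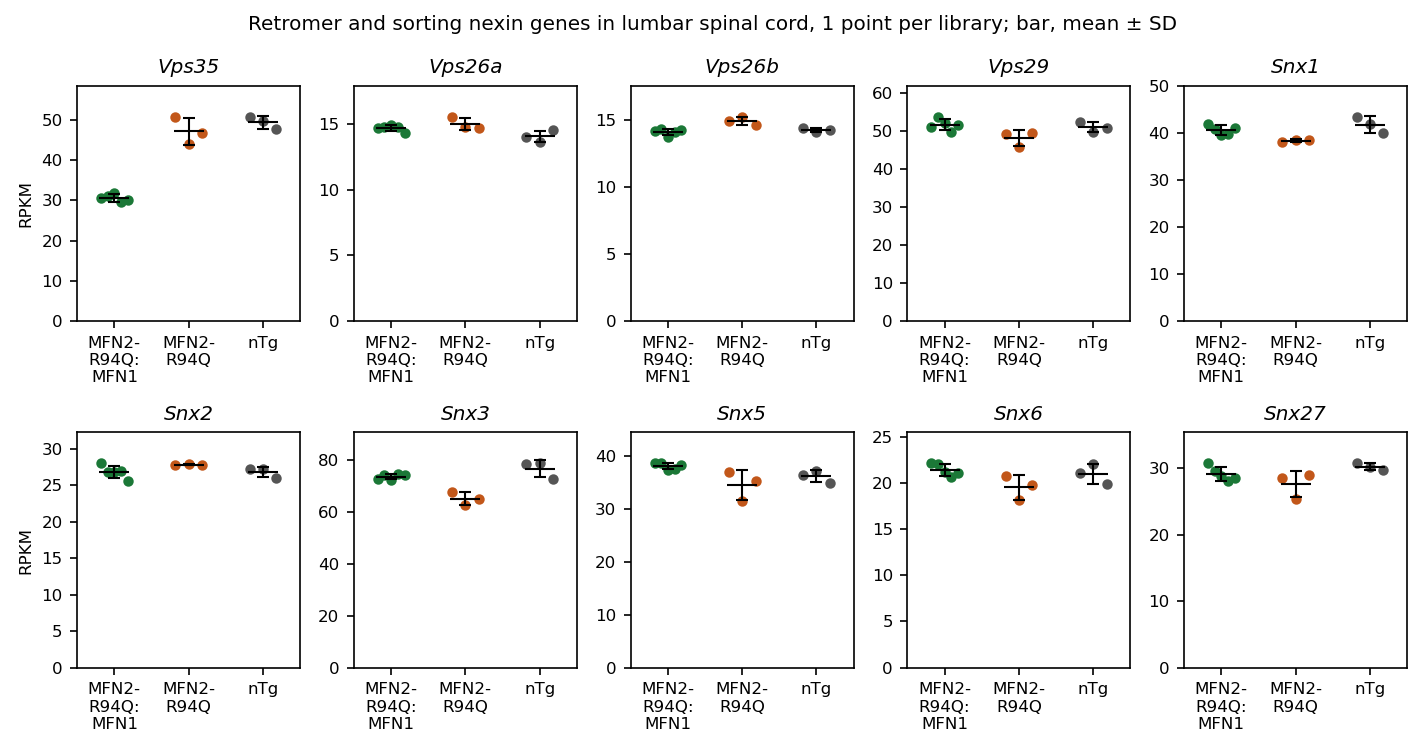
Expression (RPKM, linear axes from 0) of the 10 genes in each library; columns are MFN2-R94Q:MFN1 (5 points), MFN2-R94Q (3) and nTg (3), points are libraries in replicate order, and bars are mean ± SD. Vps35 is at 29.5 to 31.8 RPKM in MFN2-R94Q:MFN1 and at 44.0 RPKM or more elsewhere, while Snx3 is at 62.8 to 67.8 RPKM in MFN2-R94Q and at 72.3 RPKM or more elsewhere.

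None of the partners of VPS35 in the core was called lower in MFN2-R94Q:MFN1. That is near the background: 0.223% of all tested genes were called lower against nTg and 3.33% against MFN2-R94Q. Vps29 (chromosome 5, 122354328 to 122364984, plus strand), whose product binds one end of VPS35 and recruits regulators such as TBC1D5, was at 51.2, 53.9, 52.2, 49.9 and 51.6 RPKM in MFN2-R94Q:MFN1, at 49.3, 45.7 and 49.5 RPKM in MFN2-R94Q and at 52.4, 49.8 and 51.0 RPKM in nTg. The MFN2-R94Q libraries were all lower than the others, by a narrow margin. The difference was 0.02 for MFN2-R94Q:MFN1 against nTg (95% interval -0.06 to 0.10), 0.10 against MFN2-R94Q (adjusted p = 0.0723) and -0.08 for MFN2-R94Q against nTg (adjusted p = 0.149), and none was called.

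Vps26a (chromosome 10, 62454843 to 62486805, minus strand) and Vps26b (chromosome 9, 27004502 to 27030094, minus strand) encode the alternative cargo-binding subunits at the other end of VPS35. Vps26a was at 14.7, 14.7, 14.9, 14.8 and 14.3 RPKM in MFN2-R94Q:MFN1, at 15.6, 14.7 and 14.7 RPKM in MFN2-R94Q and at 14.0, 13.7 and 14.5 RPKM in nTg. Vps26b was at 14.2, 14.3, 13.7, 14.1 and 14.3 RPKM in MFN2-R94Q:MFN1, at 15.0, 15.3 and 14.7 RPKM in MFN2-R94Q and at 14.4, 14.1 and 14.3 RPKM in nTg. Both genes varied little over the 11 libraries, and MFN2-R94Q was the highest group on average for each. Against nTg, MFN2-R94Q:MFN1 differed by 0.06 for Vps26a (95% interval -0.01 to 0.14) and by -0.01 for Vps26b (-0.08 to 0.05). Against MFN2-R94Q, the largest difference among the partners of VPS35 besides that of Vps29 was -0.08 for Vps26b (adjusted p = 0.101), which passed the threshold when libraries were quantile-normalized (-0.10) or centred on their medians (-0.10).

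Set against its partners within each library, which removes any scaling between libraries, Vps35 had a different stoichiometry of transcripts in MFN2-R94Q:MFN1. The ratio of Vps35 to Vps29 was 0.591 ± 0.0127 in MFN2-R94Q:MFN1 (range 0.578 to 0.610), 0.978 ± 0.0458 in MFN2-R94Q (0.942 to 1.03) and 0.966 ± 0.0324 in nTg (0.933 to 0.998). The ratio of Vps35 to the sum of Vps26a and Vps26b was 1.06 ± 0.0328 in MFN2-R94Q:MFN1, 1.57 ± 0.0981 in MFN2-R94Q and 1.74 ± 0.0772 in nTg. In both ratios the MFN2-R94Q:MFN1 libraries lay below all others, and since Vps35 was chosen for this fall no test is given. The ratio of Vps26a to Vps26b was 1.04 ± 0.0302 in MFN2-R94Q:MFN1, 1.003 ± 0.0376 in MFN2-R94Q and 0.985 ± 0.0277 in nTg. In exact two-sided permutation tests of the paralog ratios, the adjusted p over 9 tests could not go below 0.0536 in any outcome, so none could pass the threshold and the tests do not show that a ratio was the same; those of Vps26a to Vps26b were 0.241 or more.

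**Figure D2:**
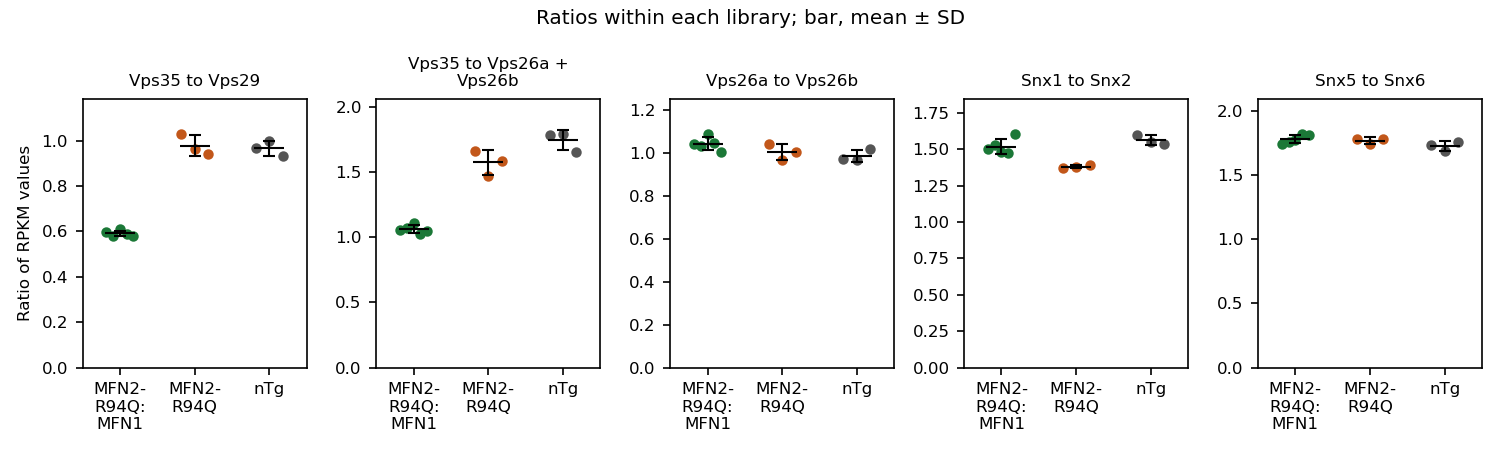
Ratios of RPKM values within each library (linear axes from 0) for Vps35 against its core partners and for 3 paralog pairs; columns are MFN2-R94Q:MFN1, MFN2-R94Q and nTg, points are libraries and bars are mean ± SD. The first 2 panels put all MFN2-R94Q:MFN1 libraries below the rest (0.578 to 0.610 for Vps35 to Vps29), and the Snx1 to Snx2 panel puts MFN2-R94Q lowest (1.37 to 1.39).

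Snx3 was the member that differed most between MFN2-R94Q and nTg. Snx3 (chromosome 10, 42502054 to 42535369, plus strand) encodes a small sorting nexin without a BAR domain that brings retromer to early endosomes and sorts Wntless. It was at 72.7, 74.4, 72.3, 74.6 and 74.3 RPKM in MFN2-R94Q:MFN1, at 67.8, 62.8 and 65.0 RPKM in MFN2-R94Q and at 78.6, 78.9 and 72.8 RPKM in nTg. The 3 MFN2-R94Q libraries were the lowest of all 11, and MFN2-R94Q:MFN1 overlapped nTg.

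Snx3 fell by 0.23 on the log2 scale in MFN2-R94Q against nTg (SE 0.0387, 0.850-fold, adjusted p = 0.00329, limma) and was 0.18 higher in MFN2-R94Q:MFN1 than in MFN2-R94Q (SE 0.0347, 1.13-fold, adjusted p = 0.00852). It kept both calls under every alternative tried, with adjusted p of at most 0.0344 and 0.0290. In MFN2-R94Q:MFN1 against nTg the difference was -0.06 (95% interval -0.13 to 0.02, adjusted p = 0.456). The 2 comparisons that called it share the MFN2-R94Q libraries, so they are not independent of each other.

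Snx27 (chromosome 3, 94497542 to 94582736, minus strand) encodes a sorting nexin with PDZ and FERM domains that links retromer to recycling of receptors to the cell surface, glutamate receptors among them. Its level was 30.8, 29.6, 28.8, 28.1 and 28.6 RPKM in MFN2-R94Q:MFN1, 28.5, 25.4 and 29.0 RPKM in MFN2-R94Q and 30.8, 30.1 and 29.8 RPKM in nTg. The MFN2-R94Q libraries were below all nTg libraries, and replicate 2 was the lowest of them. The difference of -0.13 for MFN2-R94Q against nTg missed the threshold (adjusted p = 0.0824, limma), and passed it without MFN2-R94Q replicate 3 (-0.17). The other comparisons gave -0.05 for MFN2-R94Q:MFN1 against nTg (adjusted p = 0.628) and 0.08 against MFN2-R94Q (adjusted p = 0.249).

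The sorting nexins with a BAR domain, SNX1 or SNX2 paired with SNX5 or SNX6, bend the endosomal membrane into tubules and carry receptors such as the mannose 6-phosphate receptor towards the Golgi. Snx1 (chromosome 9, 66088127 to 66124886, minus strand) was at 42.1, 41.0, 39.6, 39.7 and 41.2 RPKM in MFN2-R94Q:MFN1, at 38.0, 38.5 and 38.6 RPKM in MFN2-R94Q and at 43.5, 42.1 and 40.0 RPKM in nTg. Its paralog Snx2 (chromosome 18, 53176292 to 53220866, plus strand) was at 28.0, 26.8, 26.8, 26.9 and 25.6 RPKM in MFN2-R94Q:MFN1, at 27.7, 27.9 and 27.8 RPKM in MFN2-R94Q and at 27.2, 27.2 and 26.0 RPKM in nTg. MFN2-R94Q was thus the lowest group for Snx1 and the highest on average for Snx2, with little spread in either.

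Snx1 was lower in MFN2-R94Q than in nTg (-0.12, SE 0.0373, adjusted p = 0.039, limma), and Snx2 was not called (0.05, adjusted p = 0.340). The Snx1 call ended under quantile normalization, in a fit of these groups alone, and without any of 7 libraries: nTg replicates 1 and 2, MFN2-R94Q replicates 1, 2 and 3, and MFN2-R94Q:MFN1 replicates 2 and 5 (adjusted p 0.0536 to 0.143, difference -0.13 to -0.09). The ratio of Snx1 to Snx2 was 1.52 ± 0.0531 in MFN2-R94Q:MFN1, 1.38 ± 0.00998 in MFN2-R94Q and 1.56 ± 0.0343 in nTg, and MFN2-R94Q did not overlap either other group. An exact two-sided permutation test of the log2 ratio gave p = 0.1 for MFN2-R94Q against nTg, the smallest that 3 against 3 allows, and p = 0.0357 for MFN2-R94Q:MFN1 against MFN2-R94Q, the smallest that 5 against 3 allows; both were 0.241 after adjustment over the 9 ratio tests.

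Snx5 (chromosome 2, 144250123 to 144270902, minus strand) was at 38.6, 38.7, 37.5, 37.7 and 38.3 RPKM in MFN2-R94Q:MFN1, at 36.9, 31.5 and 35.3 RPKM in MFN2-R94Q and at 36.5, 37.2 and 34.96 RPKM in nTg. Every MFN2-R94Q:MFN1 library was above every other library, by a narrow margin over nTg. Snx6 (chromosome 12, 54746339 to 54795749, minus strand) was at 22.1, 22.0, 21.2, 20.7 and 21.1 RPKM in MFN2-R94Q:MFN1, at 20.7, 18.1 and 19.7 RPKM in MFN2-R94Q and at 21.05, 22.0 and 19.9 RPKM in nTg. For both paralogs MFN2-R94Q replicate 2 was the lowest library of all.

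Snx5 was called higher in MFN2-R94Q:MFN1 than in MFN2-R94Q (0.14, SE 0.0443, adjusted p = 0.0493, limma), and Snx6, at 0.13, was not (adjusted p = 0.0800). Snx6 passed the threshold with library weights (0.12, adjusted p = 0.0156) and without MFN2-R94Q replicate 1 (0.18, adjusted p = 0.0305). Without MFN2-R94Q replicate 2 the Snx5 difference was 0.08. Among fits that left out 1 library, the Snx5 call held only without MFN2-R94Q replicate 1. It ended without each of the other 10 libraries (adjusted p 0.0576 to 0.185). It also ended without a filter, under quantile normalization or median centring, and in a fit of these groups alone (adjusted p 0.0769 to 0.0895). Against nTg, MFN2-R94Q:MFN1 differed by 0.08 for Snx5 (adjusted p = 0.456) and 0.03 for Snx6 (adjusted p = 0.799). The ratio of Snx5 to Snx6 was 1.78 ± 0.0340 in MFN2-R94Q:MFN1, 1.77 ± 0.0254 in MFN2-R94Q and 1.73 ± 0.0371 in nTg. Its adjusted p was 0.241 or more in the exact permutation tests, which could not pass the threshold.

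MFN2-R94Q replicate 2 weighed on these values. It lay below the mean of the other MFN2-R94Q libraries by 12.8% for Snx5, 11.8% for Snx27, 10.6% for Snx6, 9.48% for Vps35, 7.34% for Vps29 and 5.46% for Snx3, and within 3.09% of it for Vps26a, Vps26b, Snx1 and Snx2.

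Counted together, 2 of the 10 genes were called in MFN2-R94Q against nTg, both lower (Snx1 and Snx3) and none higher, where 17.9% of all tested genes were called, 7.50% higher and 10.4% lower; 2 of 10 is near that background. The MFN2-R94Q libraries lay wholly above nTg for 3 genes and wholly below it for 4, beside 35.7% of all tested genes without overlap, 16.6% above and 19.1% below. In MFN2-R94Q:MFN1 against MFN2-R94Q, 2 of the 9 genes other than Vps35 were called, both higher (Snx3 and Snx5), beside 12.9% of all tested genes, 9.55% higher and 3.33% lower. The MFN2-R94Q:MFN1 libraries lay wholly above MFN2-R94Q for 4 of these 9 and wholly below it for 1, beside 20.1% of all tested genes without overlap, 13.1% above and 7.05% below. In MFN2-R94Q:MFN1 against nTg, 0 of the 9 were called and 0 had an unadjusted p under 0.05 in limma, beside 2.31% of all tested genes (2.09% higher and 0.223% lower), and 1 lay wholly above nTg and 0 wholly below, beside 14.1% of all tested genes (9.03% above and 5.05% below). The 9 differences lay between -0.06 and 0.08, with a median of 0.00088 beside a median of 0.0083 over all tested genes. The comparisons share libraries in pairs and are given side by side for that reason.

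**Figure D3:**
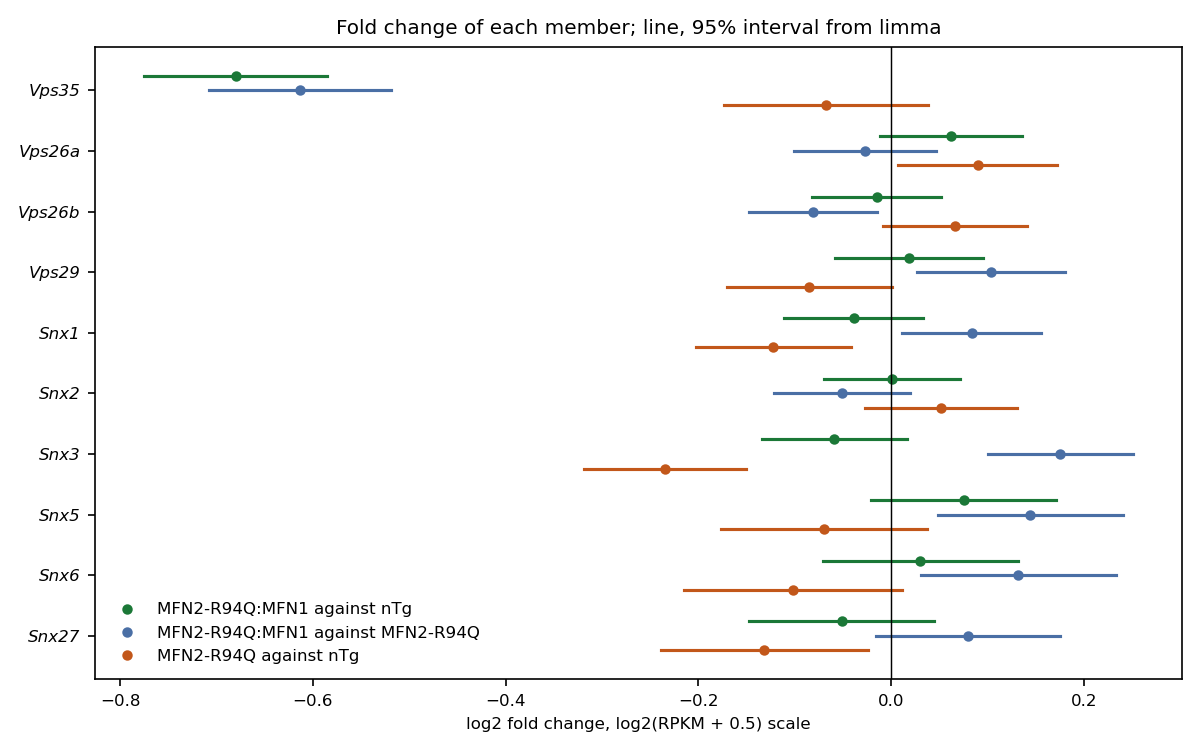
Difference on the log2(RPKM + 0.5) scale of the 10 genes in each comparison (colour), with points for the estimate and lines for the 95% interval from limma. Vps35 is at -0.68 and -0.61 in the MFN2-R94Q:MFN1 comparisons, where it was chosen and not tested. Its intervals there make no allowance for that choice. All other estimates lie between -0.23 and 0.18.

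RPKM is per length, which allows levels to be set side by side between genes, although the gene lengths the authors used are not stated and could shift the order. In nTg the order was Snx3 (76.8 RPKM), Vps29 (51.1), Vps35 (49.3), Snx1 (41.9), Snx5 (36.2), Snx27 (30.2), Snx2 (26.8), Snx6 (20.97), Vps26b (14.3) and Vps26a (14.1), and the ranges of neighbours overlapped for Vps29 with Vps35 and for Vps26b with Vps26a. In MFN2-R94Q the order was the same but for pairs that overlapped, with Snx2 (27.8) and Snx27 (27.6) overlapping and Vps26a (15.0) and Vps26b (15.0) likewise. In MFN2-R94Q:MFN1, Vps35 moved to the fifth place, after Snx3 (73.6), Vps29 (51.8), Snx1 (40.7) and Snx5 (38.2), with a range that overlapped that of Snx27 (29.2).

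None of the 11 tested genes beside Vps35 on chromosome 8 was called lower in any comparison, which is near the background. Of all tested genes, 0.223% were called lower in MFN2-R94Q:MFN1 against nTg and 3.33% against MFN2-R94Q. In MFN2-R94Q against nTg the share was 10.4%. The first neighbours by annotation were Olfr371 and Gm18137 on one side, which were not analysed here, and Orc6 and Gm22336 on the other, of which Gm22336 was not analysed here. Orc6, a subunit of the origin recognition complex that starts DNA replication, lies head to head with Vps35, with 114 bases between them in RefSeq and 171 bases of overlap in GENCODE M21. It was at 6.46, 6.55, 7.86, 7.12 and 7.22 RPKM in MFN2-R94Q:MFN1, at 7.71, 8.15 and 6.98 RPKM in MFN2-R94Q and at 6.55, 6.63 and 6.10 RPKM in nTg. Its ranges in MFN2-R94Q:MFN1 overlapped those of both other groups.

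Orc6 differed by 0.12 in MFN2-R94Q:MFN1 against nTg (adjusted p = 0.407, limma) and by -0.11 against MFN2-R94Q (adjusted p = 0.297). It was called higher in MFN2-R94Q than in nTg (0.23, adjusted p = 0.0478), a call that ended without any nTg library, without MFN2-R94Q replicates 1 or 2 and without MFN2-R94Q:MFN1 replicates 2, 4 or 5 (adjusted p 0.0524 to 0.143). That call also ended without a filter, under quantile normalization or median centring, and with library weights. Of the 20 genes annotated nearest to Vps35, 10 on each side, 11 were tested; their differences lay between -0.13 and 0.25 in MFN2-R94Q:MFN1 against nTg and between -0.11 and 0.09 against MFN2-R94Q. Against nTg, 1 of 11 was called, and 2 were higher and 2 lower at an unadjusted p under 0.05. Wholly above nTg lay 2 genes and wholly below it 2, beside 9.03% and 5.05% of all tested genes. Against MFN2-R94Q 0 of 11 was called in either direction and 0 had an unadjusted p under 0.05, beside 2.31% and 12.9% of all tested genes called in these comparisons.

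Man2b1, which encodes lysosomal alpha-mannosidase, was the neighbour called in MFN2-R94Q:MFN1 against nTg. It was at 13.3, 13.9, 13.4, 13.5 and 13.4 RPKM in MFN2-R94Q:MFN1, at 12.5, 14.4 and 13.0 RPKM in MFN2-R94Q and at 11.2, 11.3 and 11.2 RPKM in nTg, with both mutant groups above every nTg library. The difference from nTg was 0.25 in MFN2-R94Q:MFN1 (adjusted p = 0.00575, limma) and 0.23 in MFN2-R94Q (adjusted p = 0.00815); the second was lost in a fit of those groups alone. Its direction was opposite to that of Vps35.

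**Figure D4:**
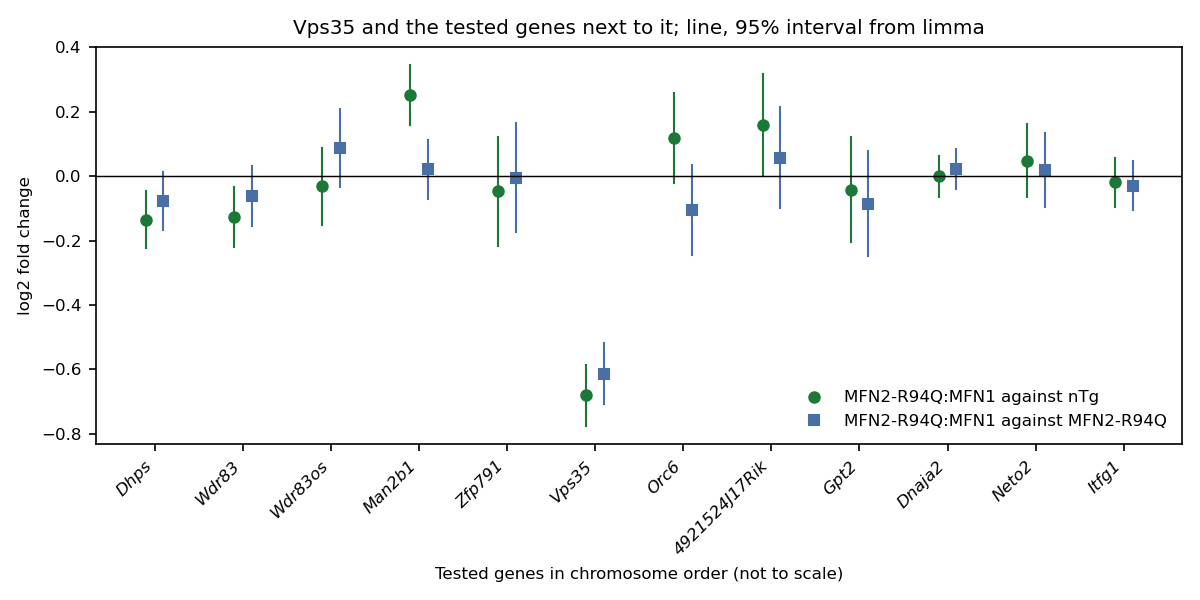
Difference on the log2(RPKM + 0.5) scale (vertical axis) for Vps35 and the 11 tested genes next to it in chromosome order (horizontal axis, not to scale), for MFN2-R94Q:MFN1 against nTg (circles) and against MFN2-R94Q (squares); lines are 95% intervals from limma. Vps35 is at -0.68 and -0.61, and its neighbours lie between -0.13 and 0.25. Vps35 was chosen for this fall and not tested, and its intervals make no allowance for that choice.

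Among the other genes of endosomal sorting, few were called in MFN2-R94Q:MFN1 against nTg, as was so of all tested genes (2.31%), and counts of 0 in lists of this size are near that background. Of the 23 other sorting nexins tested, 0 was called in that comparison, with 2 higher and 0 lower at an unadjusted p under 0.05 in limma. The 8 genes of the WASH complex, which builds actin on retromer endosomes, gave 0 calls and 0 at an unadjusted p under 0.05. The 14 regulators of retromer (Rab7, Tbc1d5, Lrrk2 and others) gave 0 calls and 2 higher unadjusted, the 15 genes of retriever and the CCC complex, a retromer-like machine (Snx17 is on this list and among the other sorting nexins), 0 calls and 1 lower unadjusted, the 8 HOPS and CORVET tethers 0 calls and 1 higher unadjusted, and the 5 GARP and EARP tethers 0 calls and 0 unadjusted. The median difference of each of these lists lay between -0.03 and 0.03, beside 0.0083 over all tested genes.

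Cargo of retromer gave the call in that comparison. Trem2, a microglial receptor whose recycling has been tied to retromer, was at 15.9, 16.7, 16.7, 15.1 and 15.0 RPKM in MFN2-R94Q:MFN1, at 10.4, 10.1 and 12.5 RPKM in MFN2-R94Q and at 8.85, 9.21 and 9.59 RPKM in nTg. The 3 groups did not overlap. Trem2 was higher in MFN2-R94Q:MFN1 than in nTg (0.75, adjusted p = 2.1e-05, limma) and than in MFN2-R94Q (0.51, adjusted p = 0.000831), and kept these calls under every alternative tried; its call in MFN2-R94Q against nTg (0.24, adjusted p = 0.0338) ended without MFN2-R94Q replicate 3 or any single nTg library (adjusted p 0.0507 to 0.105). In MFN2-R94Q:MFN1 the microglial sums given above were higher as well. In MFN2-R94Q against nTg those sums overlapped, and 0 of 7 microglial genes were called higher and 1 lower. The shares among all tested genes were 7.50% and 10.4%. The part of the microglial sums in the Trem2 differences was not tested. The other 16 cargo genes gave 0 calls in MFN2-R94Q:MFN1 against nTg and 0 at an unadjusted p under 0.05.

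Sort1, which encodes the sorting receptor sortilin, was at 57.9, 59.3, 57.1, 58.3 and 57.8 RPKM in MFN2-R94Q:MFN1, at 54.5, 48.5 and 53.7 RPKM in MFN2-R94Q and at 59.5, 59.7 and 58.7 RPKM in nTg. As with Snx3, the MFN2-R94Q libraries were the lowest. It was lower in MFN2-R94Q than in nTg (-0.18, adjusted p = 0.0102, limma; 0.0606 in a fit of these groups alone) and higher in MFN2-R94Q:MFN1 than in MFN2-R94Q (0.15, adjusted p = 0.0177; 0.0524 under quantile normalization).

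Snx15, a sorting nexin of the endosomal pathway outside retromer, was likewise lowest in MFN2-R94Q. It was at 15.9, 17.0, 16.2, 16.6 and 15.8 RPKM in MFN2-R94Q:MFN1, at 13.5, 12.2 and 13.7 RPKM in MFN2-R94Q and at 15.1, 15.4 and 16.2 RPKM in nTg. The difference was -0.24 in MFN2-R94Q against nTg (adjusted p = 0.00725, limma) and 0.30 in MFN2-R94Q:MFN1 against MFN2-R94Q (adjusted p = 0.00163), and both calls held under every alternative tried.

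In MFN2-R94Q against nTg, where 17.9% of all genes were called, the other sorting nexins gave 2 higher and 2 lower of 23. Besides Snx15 these were Snx32 (-0.16), Snx4 (0.18) and Snx24 (0.34). All 3 calls ended without MFN2-R94Q replicate 2 and without nTg replicates 2 or 3; those of Snx32 and Snx24 also ended without nTg replicate 1 (adjusted p 0.0559 to 0.119). Of the 8 WASH genes, Fam21 was higher at 37.9 RPKM in MFN2-R94Q, against 33.6 RPKM in nTg (0.17, adjusted p = 0.014, limma). Fam21 is the older name of Washc2, the subunit that tethers the complex to VPS35. Its call ended without nTg replicate 2 (adjusted p = 0.0523). In a fit of these groups alone, the calls of Fam21, Snx32, Snx4 and Snx24 ended. So did the calls in this comparison of Mon1a, Mon1b, Ehd1, Commd6, Ccdc22, Vps11, Tfrc, Gria2, Trem2 and Orc6, named elsewhere in the text. Without a filter, the calls in this comparison of Snx4, Snx24, Ehd1, Ccdc22, Vps11, Tfrc, Gria2 and Trem2 ended. Those of Snx32 and Ehd1 ended under quantile normalization, and those of Snx32, Ehd1 and Ccdc22 with library weights.

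Of the 14 regulators, 3 were lower in MFN2-R94Q than in nTg, not far from the 10.4% of all tested genes called lower: Mon1a (-0.22) and Mon1b (-0.14), which act in turning RAB5 endosomes into RAB7 endosomes, and Ehd1 (-0.15), an ATPase that severs endosomal tubules. Mon1a ended without nTg replicate 1 (adjusted p = 0.055), Ehd1 without any nTg library, MFN2-R94Q replicates 1 or 2 or MFN2-R94Q:MFN1 replicates 1 or 2, and Mon1b without any nTg or MFN2-R94Q:MFN1 library or MFN2-R94Q replicate 2 (adjusted p 0.0535 to 0.136 over both). Ehd1 was also higher in MFN2-R94Q:MFN1 than in MFN2-R94Q, at 14.7 RPKM in MFN2-R94Q:MFN1 and 12.8 RPKM in MFN2-R94Q (0.18, adjusted p = 0.0132), a call that ended only at an adjusted p of 0.01 among the alternatives tried. Rab29, a partner of LRRK2, was higher in the same comparison (0.28, adjusted p = 0.03), and that call ended without MFN2-R94Q replicates 1 or 2 or MFN2-R94Q:MFN1 replicates 2 or 5 (adjusted p 0.0503 to 0.0966).

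In MFN2-R94Q against nTg, 0 of 15 retriever and CCC genes were called higher and 2 lower. Of 8 HOPS and CORVET genes, 2 were called higher and 0 lower. The shares among all tested genes were 7.50% and 10.4%. In MFN2-R94Q:MFN1 against MFN2-R94Q, the 15 gave 1 higher and 0 lower, and the 8 gave 0 higher and 1 lower, beside 9.55% and 3.33%. Retriever and CCC genes gave Commd6 (-0.21, adjusted p = 0.0147, limma; 0.0563 without nTg replicate 3) and Ccdc22 (-0.21, adjusted p = 0.046) in MFN2-R94Q against nTg, and Commd10 (0.18, adjusted p = 0.0444) in MFN2-R94Q:MFN1 against MFN2-R94Q. Ccdc22 ended without any nTg library, MFN2-R94Q replicates 1 or 2 or MFN2-R94Q:MFN1 replicates 2, 3 or 5 (0.0597 to 0.145), and Commd10 without nTg replicates 1 or 3, MFN2-R94Q replicate 2 or any MFN2-R94Q:MFN1 library but replicate 4 (0.0523 to 0.182). The HOPS genes Vps33a (0.17, adjusted p = 0.0102) and Vps11 (0.18, adjusted p = 0.0361) were higher in MFN2-R94Q than in nTg. Vps11 ended without any nTg library or MFN2-R94Q replicate 2 (adjusted p 0.073 to 0.106), and Vps33a held in every fit that left out 1 library but not in a fit of these groups alone (0.051). Vps33a was lower in MFN2-R94Q:MFN1 than in MFN2-R94Q (-0.14, adjusted p = 0.0183; 0.0654 without MFN2-R94Q replicate 2).

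Of the 17 cargo genes, 3 were called higher and 2 lower in MFN2-R94Q against nTg, beside 7.50% and 10.4% of all tested genes. In MFN2-R94Q:MFN1 against MFN2-R94Q, 3 were called higher and 1 lower, beside 9.55% and 3.33%. Cargo genes other than Trem2 and Sort1 were called as follows. The transferrin receptor gene Tfrc was at 22.1, 28.2, 28.2, 24.2 and 23.7 RPKM in MFN2-R94Q:MFN1, at 31.7, 33.6 and 30.1 RPKM in MFN2-R94Q and at 21.2, 28.4 and 21.1 RPKM in nTg, with MFN2-R94Q highest and wide ranges elsewhere. Tfrc was higher in MFN2-R94Q than in nTg (0.44, adjusted p = 0.0186, limma), ending without nTg replicates 1 or 3 or MFN2-R94Q replicate 2 (0.0533 to 0.0697), and lower in MFN2-R94Q:MFN1 than in MFN2-R94Q (-0.33, adjusted p = 0.0458), ending without any MFN2-R94Q library or MFN2-R94Q:MFN1 replicates 1, 4 or 5 (0.0562 to 0.147). Gria2, an AMPA receptor subunit, was higher in MFN2-R94Q than in nTg (0.17, adjusted p = 0.0362), ending without any nTg library or MFN2-R94Q replicate 1 (0.0560 to 0.117). Wls, which encodes Wntless, the SNX3 cargo, was higher in MFN2-R94Q:MFN1 than in MFN2-R94Q (0.28, adjusted p = 0.025), ending without MFN2-R94Q replicate 2 or MFN2-R94Q:MFN1 replicate 2 (0.0541 to 0.0768). Bace1 (-0.13, adjusted p = 0.0404, in MFN2-R94Q against nTg) and Snx9 (0.18, adjusted p = 0.0332, in MFN2-R94Q:MFN1 against MFN2-R94Q) complete the calls. For Bace1, fits with single libraries left out are not given here, so how firm its call is stays unknown. Snx9 ended without any MFN2-R94Q library or MFN2-R94Q:MFN1 replicates 2, 3 or 4 (0.0576 to 0.0749), and Bace1 is named after its values were seen. In MFN2-R94Q:MFN1 against MFN2-R94Q, the calls of Snx9, Commd10, Rab29, Wls and Tfrc also ended without a filter. Those of Snx9 and Commd10 ended under median centring and in a fit of these groups alone. That of Commd10 also ended under quantile normalization.

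The groups also differed in markers where MFN2-R94Q was the odd group. The summed level of 6 motor neuron genes was 85.7 to 92.5 RPKM in MFN2-R94Q:MFN1, 77.1 to 83.9 RPKM in MFN2-R94Q and 90.2 to 93.1 RPKM in nTg. The sums of 6 oligodendrocyte genes were 2542 to 2872, 2259 to 2462 and 2514 to 2778 RPKM in the same order, and those of 6 endothelial genes 40.1 to 50.5, 33.2 to 39.6 and 43.5 to 50.4 RPKM. Called lower in MFN2-R94Q than in nTg were 4 of 6 motor neuron, 3 of 6 oligodendrocyte and 4 of 6 endothelial genes. The share among all tested genes was 10.4%. In MFN2-R94Q:MFN1 against MFN2-R94Q, 1 of 6 motor neuron, 4 of 6 oligodendrocyte and 3 of 6 endothelial genes were called higher, beside 9.55%. Against nTg, 0 of 6 motor neuron genes were called in MFN2-R94Q:MFN1, and 2 were lower at an unadjusted p under 0.05 (limma). The part of these shifts in the values of Snx3, Snx1, Snx5, Sort1 and Snx15 was not tested.

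**Figure D5:**
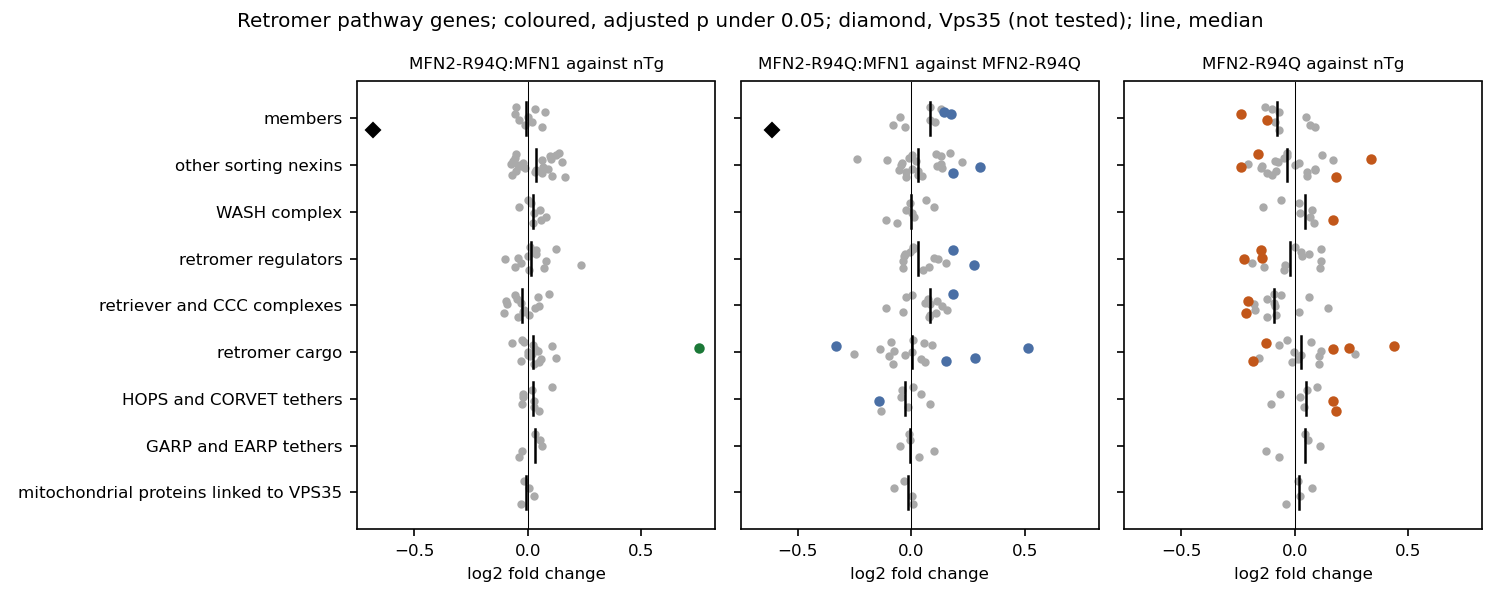
Differences on the log2(RPKM + 0.5) scale (horizontal axis) of the 10 genes and of 8 lists of related genes in the 3 comparisons (panels); points are genes, coloured where the adjusted p was under 0.05, short lines are list medians and the diamond is Vps35, not tested in the MFN2-R94Q:MFN1 comparisons. Trem2, at 0.75, is the coloured point of the first panel, and Vps35, at -0.68, is the lowest.

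The genes linking VPS35 to mitochondria were not called. Mul1, a mitochondrial ubiquitin ligase reported to be carried by retromer vesicles, averaged 12.7 RPKM in MFN2-R94Q:MFN1, 12.6 RPKM in MFN2-R94Q and 13.0 RPKM in nTg. Dnm1l, the fission GTPase DRP1, averaged 51.7, 51.6 and 50.8 RPKM in the same order. Of Mul1, Dnm1l, Mfn1 and Mfn2, 0 of 4 was called in any comparison (limma), and the unadjusted p was under 0.05 for 1 of 4 in MFN2-R94Q against nTg, 0 of 4 in MFN2-R94Q:MFN1 against nTg and 1 of 4 in MFN2-R94Q:MFN1 against MFN2-R94Q. Their differences lay between -0.07 and 0.08.

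Across the 11 libraries the levels most like that of Vps35, by Pearson correlation of log2(RPKM + 0.5), were those of Atxn1 (r = 0.93), Arntl (0.90), Mcf2l (0.90), Sowaha (0.89) and Fank1 (0.88). Mcf2l, a guanine nucleotide exchange factor gene, averaged 21.9 RPKM in MFN2-R94Q:MFN1, 25.5 RPKM in MFN2-R94Q and 25.6 RPKM in nTg, and Arntl, the clock gene encoding BMAL1, averaged 3.78, 4.63 and 4.75 RPKM in the same order. The levels most opposed to it were those of Ctsd (r = -0.98), Ctsz (-0.98), Tyrobp (-0.98), Ctsh (-0.97) and Dhrs1 (-0.97). Ctsd, the lysosomal protease cathepsin D, averaged 270.2 RPKM in MFN2-R94Q:MFN1, 227 RPKM in MFN2-R94Q and 215 RPKM in nTg. Tyrobp, the microglial adaptor of TREM2 and a gene of the microglial marker list, averaged 37.5, 22.0 and 22.0 RPKM in the same order.

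These correlations follow the genotype groups, since the 11 points are the same libraries in which Vps35 is low in 5 and high in 6, and they are a description with no test. By the same measure, r of the other members with Vps35 was 0.52 for Vps26b, 0.31 for Snx2, 0.03 for Snx27 and -0.12 for Snx1. It was -0.18 for Snx3, -0.20 for Vps26a, -0.37 for Snx6, -0.39 for Vps29 and -0.55 for Snx5. For Vps26b, 692 tested genes had a higher r with Vps35, and for Snx5, 12995 had.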

How the data were processed

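The authors deposited RPKM values (reads adjusted for the depth of the library and the length of the gene), 1 column per library for 20888 gene symbols, with the reads aligned and counted upstream. Reads were processed with Partek 7.17.0918 and TopHat, of unstated version, on the build mm10, per the submitters' processing notes; per the labels' protocols, libraries came from a stranded mRNA kit. The sources used here name neither the annotation nor a strand setting, so values of the overlapping genes Vps35 and Orc6 are uncertain to that extent. Each library was taken as 1 sample; the labels record no batch or pairing, and do not state that libraries came from separate animals, so p-values measure the spread between these samples. Depth was recovered from low values of 283 short RNA genes, of which 96.6% to 100.0% per library were within 0.02 of whole reads; reads behind a member were then estimated from its longest coding transcript, and cover counting error only.

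A linear model with trended empirical Bayes moderation (limma 3.58.1, R 4.3.3, two-sided) was fitted to log2(RPKM + 0.5) over the 11 libraries, with no term but genotype, so each test also draws on the spread of the group outside it. The filter needed 0.5 RPKM in 3 libraries or more. Steps were tested on simulated data. Ratios were tested by exact permutation (scipy 1.17.1). The members and lists were chosen with earlier results of these data known. Named were all members, up to 4 called genes per list with the smallest p, neighbours of Vps35, and the 5 genes with the highest and the 5 with the lowest correlation with it, without predicted, small RNA and sex-linked genes. Alternatives covered pseudocount, filter, scaling, groups fitted alone, library weights, threshold and each library left out. Protein sequences were not used here. A marker result is not reported here.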

Additional observations from a re-analysis of the deposited data

Results flagged for a closer look

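Rab29, a retromer regulator, had 1 library far from the others of its group. In MFN2-R94Q:MFN1 replicate 2 it was at 4.24 RPKM, and in the other 4 libraries of that genotype it was at 3.47, 3.38, 3.39 and 3.54 RPKM. In MFN2-R94Q it was at 2.79, 2.78 and 3.07 RPKM, and in nTg at 3.31, 2.91 and 2.76 RPKM. The gap exceeded Dixon's critical value of 0.71 for 5 samples. It was the single such case among 35 gene and ratio sets of 5 libraries examined. Chance gives about 1 such set in 20, so 1 case among 35 is no more than chance would give.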

How the results depend on the processing

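No paired analysis was possible because the labels carry no replicate numbers that pair samples. The Vps35 differences kept their direction under every alternative. Of the 10 genes, 2 were called in MFN2-R94Q against nTg, and 1 under quantile normalization, with the 2 groups fitted alone or at an adjusted p of 0.01; leaving out 1 library gave 1 to 2. In MFN2-R94Q:MFN1 against MFN2-R94Q, 2 of the 9 genes other than Vps35 were called, both higher. The count was 1 without a filter, with the 2 groups fitted alone or at 0.01, and 5 with library weights. The genes that library weights added were Vps29, Snx1 and Snx6, all higher. Under quantile normalization or median centring it stayed at 2, but with 1 higher (Snx3) and 1 lower (Vps26b). Leaving out 1 library gave 1 to 3. In MFN2-R94Q:MFN1 against nTg, 0 of the 9 was called under any alternative. Over all genes, 2561 calls in MFN2-R94Q against nTg became 846 with these groups alone and 771 at 0.01 (1213 to 2857 with 1 library left out). The 332 calls of MFN2-R94Q:MFN1 against nTg became 566, 590 with library weights and 156 at 0.01 (189 to 589). The 1848 calls of MFN2-R94Q:MFN1 against MFN2-R94Q became 1198 without a filter, 3378 with library weights and 412 at 0.01 (882 to 2217). Without MFN2-R94Q replicate 2 the 3 counts were 1618, 589 and 882. The first was 1692, 1213 and 1684 without nTg replicate 1, 2 and 3, the second 189, 192 and 213 without these and 205 without MFN2-R94Q:MFN1 replicate 4, and the third 1097 and 1149 without MFN2-R94Q:MFN1 replicates 2 and 5. Scaling moved the split of calls: 1370 higher and 478 lower in MFN2-R94Q:MFN1 against MFN2-R94Q became 1004 and 833 under quantile normalization and 1057 and 731 under median centring, and 300 and 32 in MFN2-R94Q:MFN1 against nTg became 231 and 61 under median centring. The cause was not tested. Counting error of the members was at most 2.85% of a value; the number of libraries limits the precision.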
